A study of Mus musculus with 16 samples.

Results

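The mRNAs of the cytosolic ribosomal proteins were followed in monocytes of NFAM1+/+ and NFAM1-/- mice. Members were taken by gene symbol alone, as the Rpl and Rps genes and the genes Rpsa, Rplp0, Rplp1 and Rplp2, without Rps6 kinases and rows named as pseudogenes. The rule found 85 of the 13085 genes listed. They comprise 77 core genes, of which 43 encode proteins of the large subunit, 31 of the small subunit and 3 of the stalk, and 8 paralogs or retro-copies, namely Rpl22l1, Rps27l, Rpl7l1, Rps4l, Rpl3l, Rps3a2, Rps3a3 and Rpl6l. Of the members, 84 had at least 1 CPM (reads of a gene scaled for the size of the library, as deposited) in at least 2 of 16 libraries and entered the tests, and only Rpl3l, at 0.170 to 1.19 CPM, did not.

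NFAM1 is a membrane receptor with an immunoreceptor tyrosine-based activation motif. The knockout is a germline CRISPR deletion of exons 2 and 3 made in C57BL/6NTac zygotes, and both genotypes came from intercrosses of heterozygous mice. Monocytes of strain C57BL/6, which the labels call PBL monocytes and the methods of the study describe as isolated from bone marrow, were cultured for 6 or 24 h with no stimulus or with the cytokine IFN-γ and 1 µg/mL of CD40L, a T cell ligand that binds CD40 on monocytes. Each of the 8 combinations of genotype, stimulus and time has 2 libraries, and the labels do not tie libraries to mice. The study names several mice of each genotype for this experiment without saying which library came from which, so that p-values measure the spread between libraries, which may be technical in part. In 4 of the libraries at 24 h (44, 46, 56 and 58) the genotype in the title is not the one in the genotype tag. Genotypes here follow the titles. Comparisons of stimulus or time average over both genotypes, and their log2 differences do not depend on that choice. Their SEs, p-values and calls rest on the spread within groups by title and can depend on it.

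Each cytosolic ribosome holds 1 large and 1 small subunit, built on ribosomal RNA from about equal numbers of nearly all of these proteins. The mRNAs of ribosomal proteins are among the most abundant of a mammalian cell, and many begin with a C followed by an uninterrupted run of pyrimidines, the 5′ terminal oligopyrimidine (TOP) tract, through which growth signals and La-related protein Larp1 control their translation. In activated macrophages and monocytes protein synthesis is regulated along with the inflammatory response, and Rpl13a is known for being released from the ribosome after IFN-γ and for silencing inflammatory mRNAs.

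The start of the mRNA is shown for members that differ in this feature. Of the 85 members, 61 had an annotated start in the RefSeq promoter windows of GRCm38.p6. Each line gives 10 bases before the start and 20 bases from it, 5′ to 3′ on the strand of the gene, with capitals for the run of C and T that begins at the first transcribed base, or for that base alone where there is no run.
Rps6, chr4:86857348-86857377, minus strand: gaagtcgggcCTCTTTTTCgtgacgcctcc
Rplp2, chr7:141447641-141447670, plus strand: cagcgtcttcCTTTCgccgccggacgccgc
Rpl15, chr14:18270967-18270996, minus strand: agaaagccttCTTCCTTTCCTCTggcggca
Rps27, chr3:90213629-90213658, minus strand: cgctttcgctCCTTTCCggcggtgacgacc
Rpl12, chr2:32961702-32961731, plus strand: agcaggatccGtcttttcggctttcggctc
Rps27l, chr9:66946076-66946105, plus strand: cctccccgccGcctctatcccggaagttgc
Rpl22l1, chr3:28805498-28805527, plus strand: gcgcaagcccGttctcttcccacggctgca
Rpl7l1, chr17:46782637-46782666, minus strand: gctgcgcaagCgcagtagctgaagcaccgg

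Rps6, Rplp2, Rpl15 and Rps27 are core members whose annotated first base is a C followed by at least 4 pyrimidines. In the windows printed for Rpl12, also a core member, and for the paralogs Rps27l and Rpl22l1, the annotated first base is a G just ahead of a run of pyrimidines. Another annotated start of Rps27l, with its window at chr9:66946403-66946432, also has a G as first base, without such a run after it. The window of the paralog Rpl7l1 begins with a C and then a G. A C at the first base with at least 4 further pyrimidines was found for 13 of the 61 members (21.3%), against 2.92% of 9389 matched genes tested and 3.01% of the 27025 genes of the table, and for 0 of 4 matched paralogs. A run of at least 7 pyrimidines anywhere from 20 bases before to 50 bases after the start was found for 83.6% of the members and 38.9% of the matched genes tested. The sense strand alone was searched, annotated starts can be a few bases off, and these matches are descriptions of letters.

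The libraries held 48295939 to 88514341 reads on the listed genes. Monocyte markers (10 of 10 listed, among them Lyz2, Csf1r and Ccr2) summed to 23977 to 26261 CPM without stimulus and 8616 to 10606 CPM with it at 6 h, and to 27367 to 30990 and 8721 to 11942 CPM at 24 h. Lyz2 was the largest part of these sums, at 16598 CPM without and 3518 CPM with the stimulus at 6 h. The list did not move as 1. Ly6c2 (424 to 2401 CPM at 6 h) and Ms4a6c (368 to 958 CPM) were higher with the stimulus at both times. Fcgr3 was higher at 6 h alone, and the rest of the list was lower at both times. The defining B cell markers Ms4a1 and Pax5 and the T cell markers Cd3d, Cd3e and Cd3g are not among the genes listed. B cell markers (3 of 6 listed, none at 0 in all libraries) summed to 134 to 153 CPM without and 311 to 371 CPM with the stimulus at 6 h, and to 127 to 198 and 34.5 to 42.4 CPM at 24 h. Most of this was Ighm, which was at 138 CPM without and 340 CPM with the stimulus at 6 h. Cd79a (0.952 and 0.576 CPM) and Cd79b (3.63 and 0.686 CPM) were lower with it at 6 h. Sums ranged from 0.605 to 6.995 CPM over all libraries for T cell markers (3 of 7 listed). Neutrophil markers (10 of 10) summed to 115 to 272 CPM without and 99.8 to 365 CPM with the stimulus at 6 h. At 24 h they summed to 646 to 1141 CPM without and 126 to 216 CPM with it. These lists moved with stimulus and time, and their part in the results was not tested. In bulk RNA, fewer cells of a type and less RNA per cell cannot be told apart. Nfam1 was at 432 and 408 CPM in NFAM1+/+ and 299 and 321 CPM in NFAM1-/- libraries without stimulus at 6 h, and at 129 to 133 and 127 to 135 CPM with it, where the genotypes overlapped. At 24 h it was at 463 and 495 CPM in libraries titled NFAM1+/+ and 441 and 391 CPM in those titled NFAM1-/- without stimulus, and at 271 and 252 against 201 and 223 CPM with it.

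The share of all reads that fell on the 85 members is free of the scaling of the deposited values, and it was lower with the stimulus at both times. Without stimulus at 6 h, libraries 1 and 2 (NFAM1+/+) held 3.96 and 4.41% and libraries 3 and 4 (NFAM1-/-) 4.37 and 4.33%. With IFN-γ plus CD40L at 6 h, libraries 26 and 10 (NFAM1+/+) held 2.25 and 2.69% and libraries 11 and 12 (NFAM1-/-) 2.80 and 2.86%. No stimulated library reached an unstimulated one, and library 26 was the lowest at this time. At 24 h the unstimulated libraries 43, 44, 45 and 46 held 4.52, 4.31, 4.21 and 4.52%, and the stimulated libraries 55, 56, 57 and 58 held 2.19, 2.03, 1.95 and 1.90%. Again the conditions did not overlap. The means were 4.27 ± 0.21% and 2.65 ± 0.27% at 6 h and 4.39 ± 0.15% and 2.02 ± 0.13% at 24 h (SD, n = 4 libraries), so that the share with stimulus was 0.621 of that without at 6 h and 0.460 at 24 h. A share also falls when other mRNAs rise. The 100 genes with most reads, members not left out, took 20.3% without and 26.7% with the stimulus at 6 h, and 22.3 and 23.9% at 24 h. The 20 genes with most reads outside the members took 8.09% without and 10.53% with it at 6 h, and 9.33 and 9.39% at 24 h. These 20 genes thus took more with the stimulus at 6 h and hardly more at 24 h. Their part in the fall of the members was not tested. The share of reads on genes encoded by the mitochondrial genome was also lower with the stimulus, at 0.964 ± 0.049% against 1.27 ± 0.07% at 6 h and 0.525 ± 0.033% against 1.35 ± 0.08% at 24 h (SD, n = 4 libraries), without overlap, and its part in the fall of the members was not tested.

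**Figure D1:**
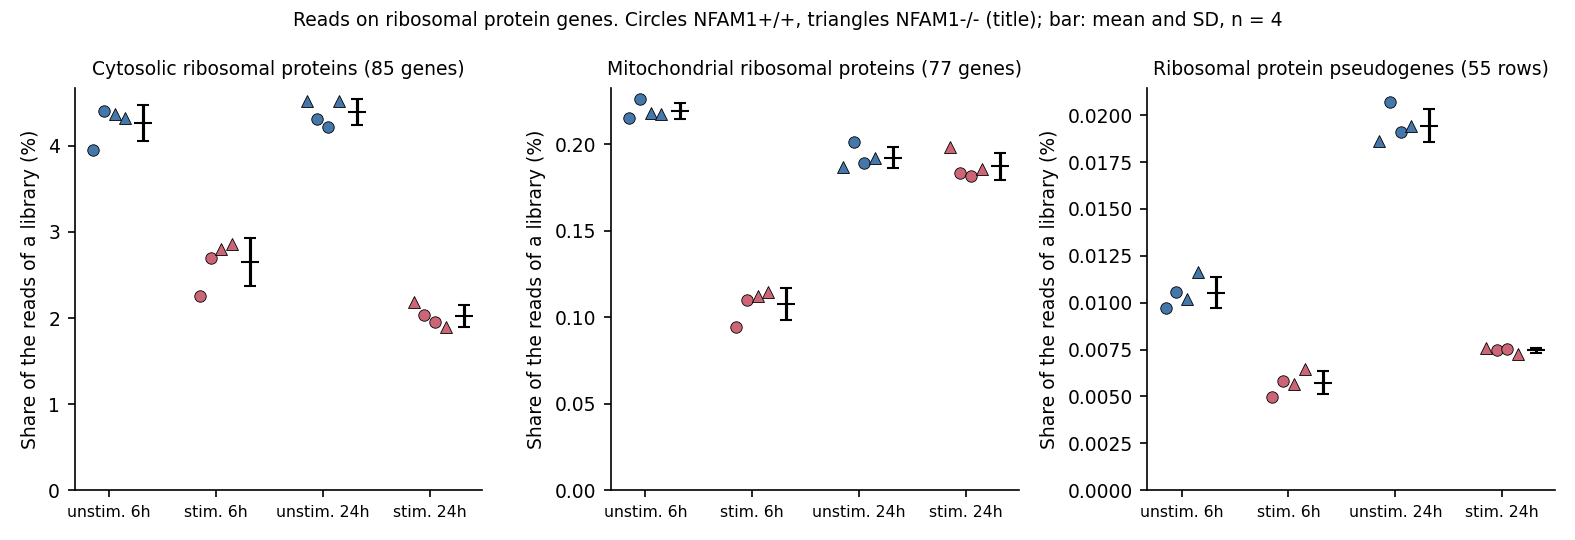
Share of the reads of each library, in percent, on the 85 cytosolic ribosomal protein genes (left), 77 mitochondrial ribosomal protein genes (middle) and 55 rows of ribosomal protein pseudogenes (right), by stimulus and time, with bars for mean and SD of 4 libraries. The cytosolic share was lower with the stimulus at both times (2.65 and 2.02% against 4.27 and 4.39%), while the mitochondrial share was 0.108% against 0.219% at 6 h and 0.187% against 0.192% at 24 h.

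At 24 h the response to the stimulus was a fall of nearly every core member. In limma's moderated test on the deposited log2 CPM, with Benjamini-Hochberg adjustment over 12782 genes and a threshold of 0.05, 79 of 84 members fell and 3 rose. Over all genes tested 36.5% fell and 38.3% rose. The fall reached 2-fold for 21 members, against 18.7% of all genes. Of the 77 core members 76 fell and 0 rose, and the median log2 difference over the core members was -0.79, beside 0.01 over all genes tested. In 77 members every stimulated library was below every unstimulated one, which held for 33.5% of all genes.

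The members with the deepest fall at 24 h sit in both subunits and at the stalk. Rpl10a, the protein of the L1 stalk, was at 284.5, 285.2, 274.1 and 303.2 CPM in the unstimulated libraries 43 to 46 and at 106.7, 90.5, 81.7 and 90.1 CPM in the stimulated libraries 55 to 58. The stimulated libraries lay far below the others, and the log2 difference was -1.64 (SE 0.07, limma adjusted p = 7.87e-11). Rpl12, which binds at the base of the acidic stalk, fell from 283.7 to 300.9 CPM over the unstimulated libraries to 91.8 to 123.6 CPM, a log2 difference of -1.47 (SE 0.09, limma adjusted p = 4.08e-09). Rpsa, a small-subunit protein also known as the laminin receptor, was at 1297, 1189, 1190 and 1284 CPM without and at 505.9, 462.1, 418.3 and 452.4 CPM with the stimulus, a log2 difference of -1.43 (SE 0.08, limma adjusted p = 1.04e-09). None of the 3 had overlapping libraries.

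The stalk proteins Rplp0, Rplp1 and Rplp2, which recruit the elongation factors to the large subunit, fell together at 24 h. Rplp0 was at 1607, 1417, 1454 and 1595 CPM in the unstimulated and 662.5, 580.9, 574.2 and 585.7 CPM in the stimulated libraries, a log2 difference of -1.34 (SE 0.06, limma adjusted p = 1.17e-10). Rplp1 fell by 0.88 and Rplp2 by 0.95 on the log2 scale (SE 0.07 each, limma adjusted p = 5.88e-08 and 1.32e-08). Their median of -0.95 compares with -0.79 over 43 core members of the large and -0.77 over 31 of the small subunit, and no test of the difference between these classes was made.

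The smallest change of a core member at 24 h was that of Rps24, a small-subunit protein, and Rpl24, which was hardly detected, was the 1 core member that did not fall. Rps24 was at 550.9, 565.4, 529.4 and 578.2 CPM without and at 520.5, 493.8, 535.2 and 496.7 CPM with the stimulus. These libraries overlapped, and the log2 difference was -0.12 (SE 0.05, limma adjusted p = 0.0447). Rpl24 was at 0.58 to 1.76 CPM over all 16 libraries, or 46 to 111 reads, and its log2 difference of 0.39 (SE 0.28) did not pass (limma adjusted p = 0.216). Rpl13a, the member linked to silencing after IFN-γ, fell from 11.71, 10.46, 9.23 and 10.80 CPM to 7.85, 7.05, 8.09 and 6.27 CPM, a log2 difference of -0.53 (SE 0.13, limma adjusted p = 0.00182). Other members of fixed interest fell closer to the median, Rps6, the substrate of S6 kinases, by 0.75 and Rps27a, made as a fusion with ubiquitin, by 0.91 on the log2 scale (limma adjusted p = 5.81e-08 and 4.02e-10).

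**Figure D2:**
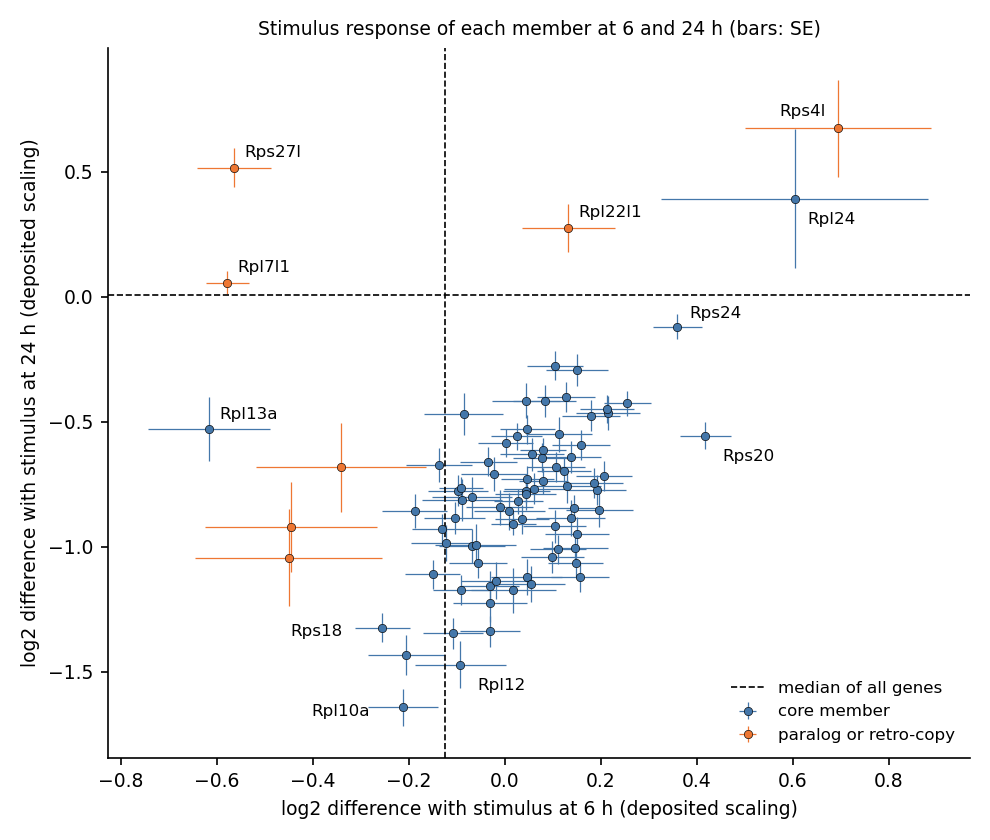
Log2 difference with IFN-γ plus CD40L at 6 h (x axis) and at 24 h (y axis) for 84 members on the deposited scaling, with SE bars and dashed lines at the median of all genes tested. Core members (blue) lie near 0 at 6 h and, but for Rpl24, below 0 at 24 h, with Rpl10a lowest at -1.64 and Rps24 near the line at -0.12, whereas the paralogs Rps27l, Rps4l and Rpl22l1 (orange) lie above 0 at 24 h.

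At 6 h the direction of the response depends on how the libraries are put on 1 scale. On the deposited scaling 16 of 84 members rose with the stimulus and 10 fell (35% and 43.3% of all genes), 0 by 2-fold against 39.7% of all genes, and the median was 0.04, beside -0.13 over all genes. The deposited values divide by a scaled library size, and the ratio of reads to that size was 0.756 to 0.775 without and 1.24 to 1.32 with the stimulus at 6 h. When the reads of a library were divided by that library's total (own totals), 82 members fell and 0 rose (69.6% and 19.1% of all genes), with a median of -0.69 beside -0.86 over all genes. These scalings differ by 1 constant per library, so that the distance of the members from other genes is the same in both by construction, 0.17 log2 units above the median of all genes at 6 h and 0.78 below it at 24 h. Quantile normalization, which does not shift all genes of a library alike, put the members 0.61 below the median of all genes at 6 h and 1.17 below at 24 h. As a list, the members at 6 h have neither a direction nor a place relative to other genes that holds under all of these scalings. At 24 h the members were lower under each of them, and the own-total fit had 80 lower and 1 higher (52.3% and 24.4% of all genes).

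**Figure D3:**
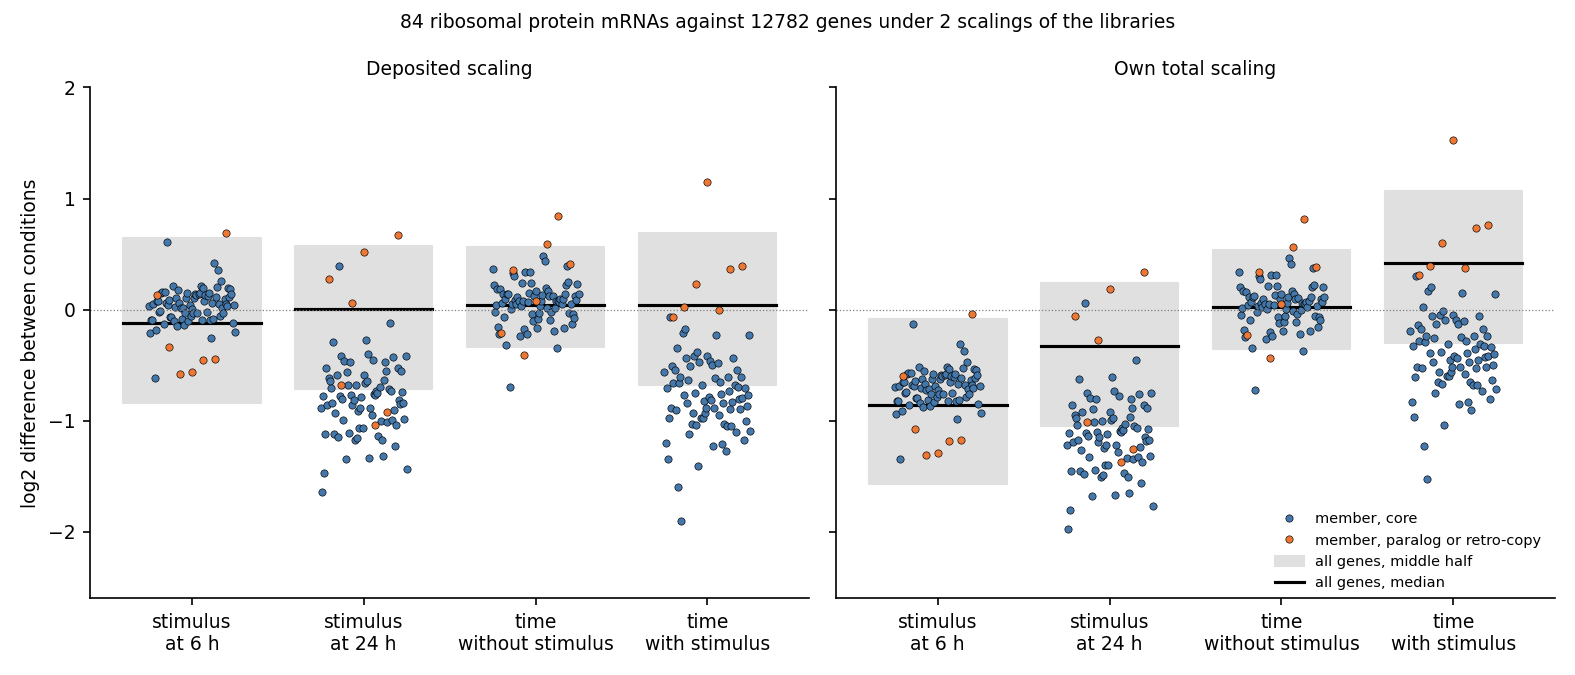
Log2 differences of 84 members (points, core blue, paralogs and retro-copies orange) in 4 comparisons, on the deposited scaling (left) and with own totals of reads (right), over the quartile range (grey) and median (black line) of 12782 genes. At 6 h the members move from around 0 (median 0.04) to below it (-0.69) with the scaling, with a median 0.17 above that of all genes in both panels, a distance that these scalings cannot change, and at 24 h their median lies below that of all genes in both.

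The highest log2 differences at 6 h were those of Rps4l, Rpl24 and Rps20 and the lowest those of Rpl13a, Rpl7l1 and Rps27l. Rps20, a small-subunit protein, was at 352.9, 372.9, 374.3 and 366.9 CPM in libraries 1 to 4 and at 438.1, 469.3, 516.7 and 542.3 CPM in libraries 26, 10, 11 and 12. The stimulated libraries were all higher, with a log2 difference of 0.42 (SE 0.05, limma adjusted p = 5.45e-06) that turned to -0.31 on the own-total scale. Rps24 was at 512.4, 563.4, 551.2 and 527.6 CPM without and at 649.0, 679.9, 714.6 and 721.5 CPM with the stimulus, a log2 difference of 0.36 (SE 0.05, limma adjusted p = 1.54e-05), and -0.37 by own totals. Rpl24, with a log2 difference of 0.60 (SE 0.28), did not pass (limma adjusted p = 0.0608). Rpl13a was at 9.87, 13.51, 12.58 and 11.26 CPM without and 6.24, 7.64, 7.85 and 9.13 CPM with the stimulus. The libraries did not overlap, and Rpl13a fell on both scales, with log2 differences of -0.62 (SE 0.13, limma adjusted p = 0.000516) and -1.35.

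Of the abundant members that fell most at 24 h, Rplp0 stood near the middle at 6 h, whereas Rpl10a and Rpsa were among the 10 members already lower on the deposited scaling. Rplp0 was at 1335, 1501, 1453 and 1453 CPM without and at 1229, 1423, 1485 and 1495 CPM with the stimulus. The conditions overlapped on this scale, with a log2 difference of -0.03. In CPM of the own totals, Rplp0 was at 1737, 1937, 1887 and 1923 without and at 934, 1147, 1166 and 1184 with the stimulus, without overlap. Rpl10a and Rpsa each fell by 0.21 on the log2 scale at 6 h (limma adjusted p = 0.0163 and 0.0317). Rpl10a was at 217.8, 262.6, 254.6 and 248.3 CPM without and 180.3, 210.5, 226.6 and 233.0 CPM with the stimulus, and these ranges overlapped. The other members of fixed interest had log2 differences of 0.19 for Rps6 (limma adjusted p = 0.012), 0.14 for Rplp1 (0.0952), 0.15 for Rplp2 (0.0548) and 0.02 for Rps27a (0.741) at 6 h, all negative by own totals.

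Whether the response differed between the times was tested as the difference between the 2 stimulus differences. It was lower at 24 h for 75 members and higher for 2 (32% and 35.2% of all genes), and by at least 2-fold lower for 23, against 18.2% of all genes. The median was -0.82 for the members and 0.04 for all genes, and by own totals -0.42 and 0.44, with 65 members lower and 4 higher (21.6% and 50.6% of all genes). Rpl10a (-1.43, SE 0.10, limma adjusted p = 4.56e-08), Rpl12 (-1.38, SE 0.13, limma adjusted p = 6.91e-07) and Rplp0 (-1.31, SE 0.09) had the deepest log2 differences. Rps27l (1.08, SE 0.11, limma adjusted p = 1.13e-06) and Rpl7l1 (0.63, SE 0.06, limma adjusted p = 9.38e-07) were the 2 members that went the other way, and both are paralogs. The 7 members that did not pass were Rpl13a, Rpl22l1, Rpl24, Rpl6l, Rps3a2, Rps3a3 and Rps4l.

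Between 6 and 24 h of culture without a stimulus the members changed little on balance, and single members moved both ways. On the deposited scaling 23 were higher and 9 lower at 24 h (34.3% and 30.1% of all genes), 0 by 2-fold against 21% of all genes, with a median of 0.08 beside 0.04. Rpl23a, which lies near the exit of the peptide tunnel, was at 88.4, 101.5, 101.9 and 101.4 CPM at 6 h and 62.4, 59.5, 58.8 and 61.6 CPM at 24 h. Its libraries did not overlap and it fell by 0.70 on the log2 scale (SE 0.07, limma adjusted p = 1.37e-06). Rps2, of the small subunit, fell by 0.35 (SE 0.08, limma adjusted p = 0.0022), from 439.5 to 510.2 CPM over the libraries at 6 h to 351.1 to 413.1 CPM. The stalk protein Rplp2 rose from 318.0 to 360.2 CPM to 443.5 to 488.8 CPM, a log2 difference of 0.48 (SE 0.07, limma adjusted p = 2.59e-05). The retro-copies Rps3a2 and Rps3a3 were higher at 24 h, by 0.59 (SE 0.20, limma adjusted p = 0.0165) and 0.84 (SE 0.18, limma adjusted p = 0.00095). The proliferation markers Mki67, Top2a, Cdk1 and Ccnb1 summed to 1278 to 1412 CPM at 6 h and 41.8 to 53.5 CPM at 24 h in these libraries. In the stimulated libraries they summed to 632 to 919 CPM at 6 h and 23.4 to 49.2 CPM at 24 h. Their part in the differences over time or with the stimulus was not tested.

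With the stimulus, 75 members were lower and 2 higher at 24 h than at 6 h (36.7% and 39.7% of all genes), 18 of them lower by at least 2-fold (17.2% of all genes). The median was -0.76 beside 0.04 over all genes. By own totals 62 were lower and 8 higher (24.2% and 54.8% of all genes), with a median of -0.39 beside 0.41. These libraries also enter the stimulus differences above, so that this comparison is not a separate test of them. Rpl23a was at 89.0, 101.5, 108.8 and 109.7 CPM at 6 h and 29.4, 29.2, 27.6 and 23.5 CPM at 24 h. It showed the deepest fall of any member in this comparison, by 1.90 on the log2 scale (SE 0.07, limma adjusted p = 2.87e-11) and by 1.53 by own totals. Rpl21 and Rpl36a, also of the large subunit, fell by 1.60 (SE 0.06, limma adjusted p = 2.78e-11) and 1.41 (SE 0.09, limma adjusted p = 4e-09), and by 1.22 and 1.04 by own totals. Rpl21 went from 365.4 to 448.2 CPM over the libraries at 6 h to 119.6 to 143.9 CPM, and Rpl36a from 95.5 to 127.5 CPM to 38.9 to 46.8 CPM. All 3 were also among the 9 members that fell over time without the stimulus.

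The paralogs Rps27l, Rpl7l1, Rpl22l1 and Rps4l stood apart at 24 h from the core genes they resemble. Of the 7 paralogs and retro-copies tested, 3 rose and 3 fell with the stimulus at 24 h on the deposited scaling. The 3 that fell, as most core members did, were Rps3a2, Rps3a3 and Rpl6l. Rps3a2 went from 2.73 to 3.53 CPM over the unstimulated libraries to 1.07 to 1.87 CPM. Rps3a3 went from 2.69 to 3.27 CPM to 1.39 to 1.69 CPM. Rpl6l, whose libraries overlapped, went from 2.32 to 3.77 CPM to 1.60 to 2.46 CPM. Rps27l, a paralog of Rps27 known as a target of p53, was at 43.06, 42.37, 46.24 and 42.75 CPM without and 27.76, 29.64, 30.13 and 30.47 CPM with the stimulus at 6 h. At 24 h it was at 37.74, 54.99, 45.85 and 46.41 CPM without and 67.99, 65.68, 69.46 and 59.45 CPM with it. The direction turned from a fall of all libraries at 6 h (-0.56, SE 0.08, limma adjusted p = 1.22e-05) to a rise of all libraries at 24 h (0.52, SE 0.08, limma adjusted p = 3.38e-05). By own totals the rise was 0.18 (limma adjusted p = 0.0495) and the 6 h difference -1.29. Rps27 went the other way on the deposited scaling, at 386.5, 416.7, 400.4 and 384.8 CPM against 439.2, 454.1, 502.8 and 502.7 CPM at 6 h and 442.6, 443.3, 411.0 and 450.1 CPM against 340.1, 326.1, 328.8 and 304.8 CPM at 24 h. Its log2 differences were 0.26 and -0.43 (limma adjusted p = 0.000259 and 2.16e-06), the first of which turned to -0.48 by own totals.

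Rpl7l1, a paralog of Rpl7, fell at 6 h on both scales, and whether it fell at 24 h depended on the scaling. It was at 111.6, 116.3, 101.5 and 102.6 CPM without and 66.56, 70.22, 79.83 and 72.92 CPM with the stimulus at 6 h, and at 79.41, 82.98, 81.22 and 81.45 CPM against 85.75, 81.41, 83.81 and 87.11 CPM at 24 h. It fell by 0.58 on the log2 scale at 6 h (SE 0.04, limma adjusted p = 2.73e-08), and its difference of 0.06 at 24 h (SE 0.04, limma adjusted p = 0.266) became -0.28 by own totals. On the own-total scale its libraries at 24 h did not overlap. They were at 102.3, 105.3, 104.2 and 104.7 CPM without and 88.2, 81.6, 84.5 and 89.8 CPM with the stimulus. Rpl7 had a difference of -0.03 at 6 h (limma adjusted p = 0.603) and fell by 0.66 at 24 h (limma adjusted p = 1.52e-07). For this pair, as for Rps27, the core gene was lowest with the stimulus at 24 h. Over culture without the stimulus Rpl7l1 fell by 0.41 (SE 0.04, limma adjusted p = 2.63e-06).

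Rpl22l1 and Rpl22 are known to form a pair in which Rpl22 represses its paralog. Rpl22 was at 151.8, 164.5, 171.3 and 162.3 CPM without and 125.4, 146.5, 166.4 and 157.8 CPM with the stimulus at 6 h, and at 177.9, 176.5, 168.7 and 191.1 CPM against 103.3, 92.5, 90.8 and 88.4 CPM at 24 h. It fell at 24 h (-0.93, SE 0.06, limma adjusted p = 7.61e-09) and did not pass at 6 h (-0.13, limma adjusted p = 0.07). Rpl22l1 was at 16.54, 20.68, 19.41 and 21.16 CPM without and 23.94, 26.31, 22.13 and 21.65 CPM with the stimulus at 24 h. Its rise of 0.28 (SE 0.10, limma adjusted p = 0.0192) turned to -0.06 by own totals. Rps4l, a low paralog of Rps4x at 4.40 to 14.03 CPM over all libraries, rose by 0.69 at 6 h (SE 0.19, limma adjusted p = 0.00477) and 0.67 at 24 h (SE 0.19, limma adjusted p = 0.0062), and by own totals its differences were -0.04 and 0.34. Rps4x had 0.20 at 6 h (limma adjusted p = 0.0192), which turned to -0.53 by own totals, and fell by 0.85 at 24 h (limma adjusted p = 6.29e-08). Rpl3, Rpl10 and Rpl39, whose paralogs were not tested here, fell at 24 h by 1.35, 0.89 and 1.07.

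**Figure D4:**
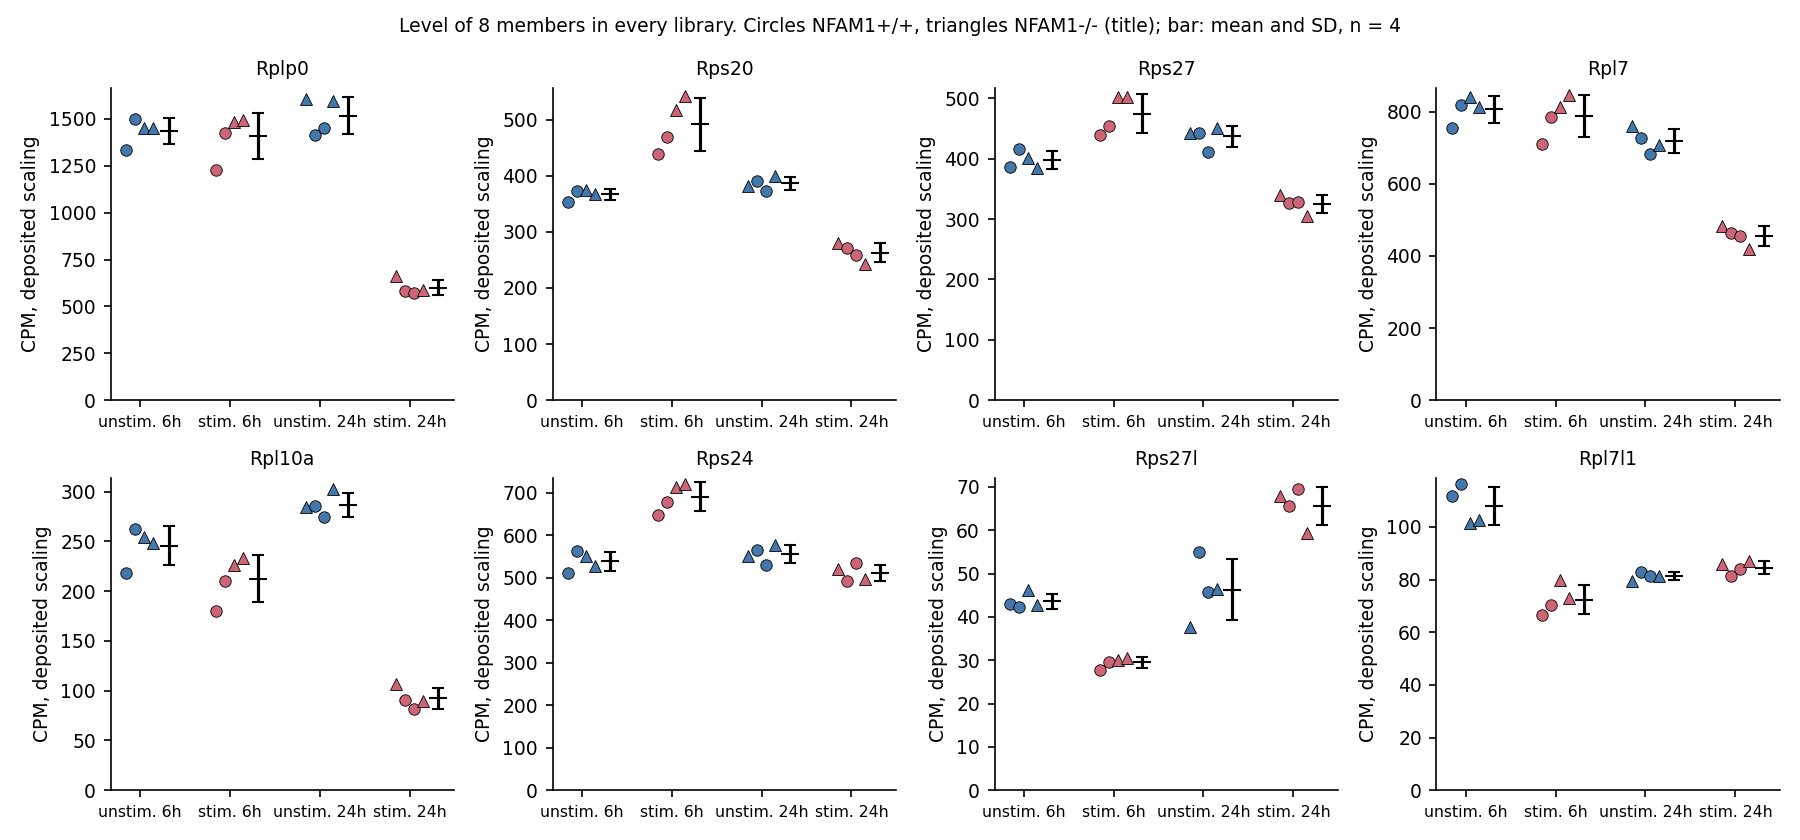
CPM on the deposited scaling of 8 members in all 16 libraries by stimulus and time (circles NFAM1+/+, triangles NFAM1-/- by title), with mean and SD of 4 libraries. Rplp0 and Rpl10a drop with the stimulus at 24 h, Rps20 and Rps24 are higher with it at 6 h on this scaling, and Rps27l and Rpl7l1 do not follow Rps27 and Rpl7.

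Levels of different genes were compared per length, as CPM of the own totals per kilobase of transcript. The median over the 77 core members was 553 without and 339 with the stimulus at 6 h, and 591 and 262 at 24 h. In unstimulated libraries at 6 h Rps27 (1500.0), Rps9 (1444) and Rplp0 (1378) were highest, and 58 of 77 core members lay within 2-fold of the median, against 57 with the stimulus. Rps9, Rps27 and Rpl10 were highest with the stimulus at 24 h, at 989, 958 and 712. The lowest were Rpl24 (1.68), Rpl13a (14.7) and Rpl22 (103) without stimulus at 6 h, and the same 3 in the other conditions. Rpl24 and Rpl13a have near-identical copies elsewhere in the genome, how reads shared between copies were counted is not given in the sources used here, and the levels of these genes and of all retro-copies are uncertain for that reason. In unstimulated libraries at 6 h, Rps27l at 114 and Rpl7l1 at 54.0 were far below Rps27 at 1500.0 and Rpl7 at 904. Rpl22l1 was closer to its partner, at 53.0 against 103 for Rpl22, and with the stimulus at 24 h these were at 43.3 and 46.5.

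Members with and without the tract at the start of the mRNA are set side by side with no test. The 13 core members with a tract from the annotated first base had a median log2 difference of 0.10 at 6 h and -0.86 at 24 h. The 44 matched core members without one had 0.04 and -0.78. Among the mRNAs printed above, Rps6, Rplp2, Rpl15 and Rps27 have the tract and fell by 0.75, 0.95, 0.61 and 0.43 at 24 h, and Rpl12, whose annotated first base is a G, fell by 1.47.

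Genes that work with the ribosome were read from lists defined by function, and their counts stand beside 35% of all genes higher and 43.3% lower at 6 h and 38.3% higher and 36.5% lower at 24 h (by own totals 19.1 and 69.6%, and 24.4 and 52.3%). Fau and Rpl36al encode ribosomal proteins and Rack1 a ribosome-bound scaffold outside the symbol rule. Rack1 fell at 24 h by 0.99 (SE 0.07, limma adjusted p = 9.8e-09), Fau by 0.38 (SE 0.06, limma adjusted p = 4.4e-05) and Rpl36al by 0.44 (SE 0.06, limma adjusted p = 2.21e-05). Of 8 genes listed with the elongation factors, 4 fell and 2 rose at 24 h (6 and 0 by own totals). Among them Eef2k, a kinase, fell by 1.51 and Eef1e1 rose by 0.50, and neither is itself an elongation factor. The factors that deliver aminoacyl-tRNA and move the ribosome along both fell, Eef1a1 by 0.76 (SE 0.07, limma adjusted p = 1.93e-07) and Eef2 by 0.82 (SE 0.07, limma adjusted p = 6.19e-08). At 6 h Rack1 and Eef1a1 had differences of 0.00 and -0.01 (limma adjusted p = 0.953 and 0.852). Among 13 other genes known for RNA with a TOP tract, 7 rose and 4 fell at 24 h. Gas5 and the Snhg genes of this list are non-coding. The 4 that fell encode proteins, namely Pabpc1 (-0.62), Npm1 (-0.49), Naca (-0.41) and Tpt1. Of the other protein-coding genes, Hnrnpa1 rose (0.45), and Nap1l1 (0.02) and Btf3 (0.10) did not pass. The rest of those that rose are non-coding. Tpt1, the translationally controlled tumor protein, fell by 0.60 after a difference of 0.33 at 6 h (limma adjusted p = 6.76e-07 and 0.000201). The latter turned to -0.40 by own totals. By own totals 5 of these 13 rose and 6 fell. Of 28 initiation factors 14 rose and 8 fell at 24 h, with a median of 0.17, which turned to 7 and 14 and -0.16 by own totals. In lists this short, these counts at 24 h do not stand clearly apart from the shares over all genes.

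Ribosome biogenesis and mitochondrial ribosomes followed the opposite order in time. Of 39 biogenesis factors tested, 35 fell and 3 rose at 6 h, 23 of them falling by at least 2-fold (43.3% and 35% of all genes, and 20.6% by at least 2-fold), with a median of -1.09. At 24 h 16 fell and 10 rose (36.5% and 38.3% of all genes), with a median of -0.07 (28 and 3 by own totals, median -0.40), and the response was higher at 24 h than at 6 h for 29 and lower for 4. Npm1, the nucleolar chaperone of ribosome assembly, fell at both times, by 0.39 and 0.49 (limma adjusted p = 3.75e-05 and 5.26e-06). Of 77 mitochondrial ribosomal proteins 52 fell and 8 rose at 6 h (median -0.45), whereas 9 fell and 36 rose at 24 h (median 0.22), which turned to 24 and 19 by own totals (median -0.12), and for 61 of them the response was higher at 24 h. Beside these, 75 of the 84 cytosolic members had a response that was lower at 24 h. Of 52 pseudogene rows of cytosolic ribosomal proteins tested, 44 fell and 0 rose at 24 h (median -1.03), and the 55 rows took 0.00574 to 0.0195% of the reads as means of the conditions.

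**Figure D5:**
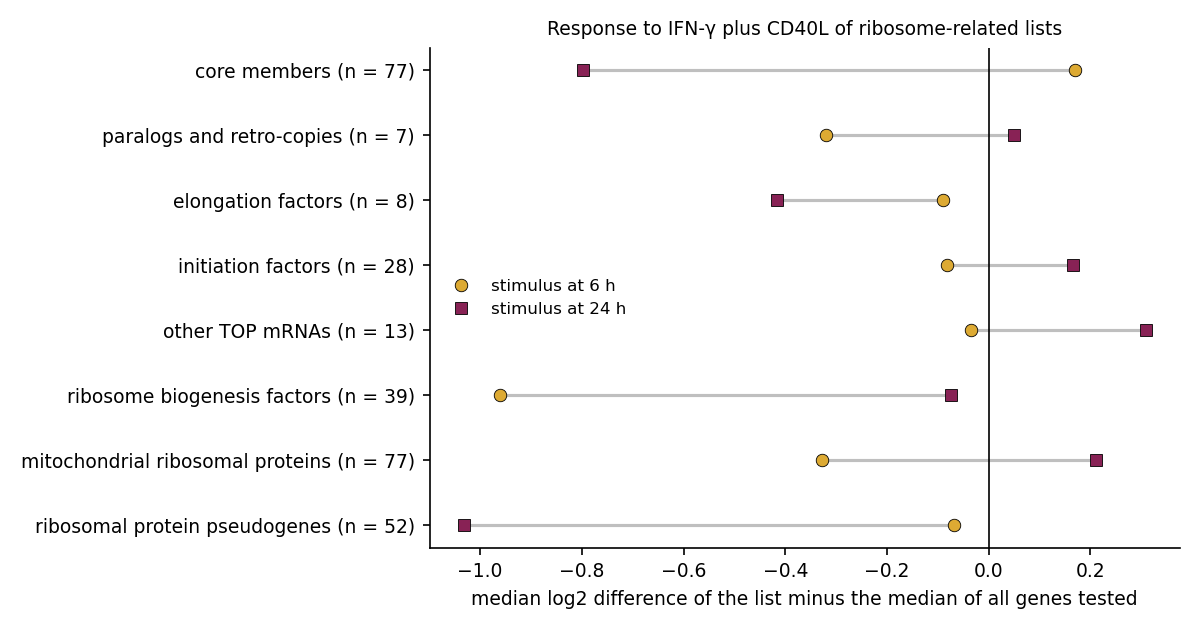
Median log2 difference with IFN-γ plus CD40L at 6 h (circles) and 24 h (squares) of the core members, the paralogs and retro-copies and 6 ribosome-related lists, each minus the median of all genes tested, with the number of genes tested in each. The list of other TOP mRNAs includes the non-coding Gas5 and Snhg genes, and that of elongation factors includes Eef1e1 and Eef2k. On the deposited scaling the core members went from 0.17 above the median of all genes at 6 h to 0.80 below it at 24 h. Ribosome biogenesis factors went from 0.96 below to 0.07 below. The place of the members at 6 h depends on the scaling, and with quantile normalization they lay 0.61 below the median of all genes.

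Among 23 regulators of the translation or transcription of these mRNAs, 13 rose and 5 fell at 24 h, and 9 rose and 11 fell at 6 h, against 8 and 10 and then 5 and 17 by own totals. At 6 h these counts lie near the shares over all genes (35% higher and 43.3% lower), and at 24 h 38.3% of all genes were higher and 36.5% lower. Larp1, which binds TOP mRNAs and holds them from translation, rose by 2.30 at 6 h (SE 0.05, limma adjusted p = 4.8e-14) and 1.68 at 24 h (SE 0.05, limma adjusted p = 1.99e-12), from 131 to 648 CPM and from 150 to 481 CPM as means of 4 libraries. Myc, a transcription factor that drives ribosome production in growing cells, fell by 1.20 (SE 0.25, limma adjusted p = 0.000501) and 3.68 (SE 0.25, limma adjusted p = 7.13e-09), from means of 4.40 and 13.1 CPM without to 1.96 and 1.02 CPM with the stimulus. Both moved in the same direction by own totals at 6 h, with differences of 1.57 and -1.93.

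Between genotypes no member passed the test in any of the 4 conditions. In limma's test 0 of 84 members were called (0.156% of all genes without and 0% with stimulus at 6 h, 0.954% and 2.1% at 24 h), and at an unadjusted p under 0.05 there were 1 lower, 42 higher, 2 higher with 1 lower, and 1 higher in NFAM1-/- in the same order. The shares of all genes higher and lower at that limit were 5.44 and 4.65%, 7.82 and 6.75%, 4.76 and 6.16%, and 7.84 and 7.71%. The 42 of 84 members at 6 h with the stimulus exceed the share of all genes, and the other counts lie below it. The medians were 0.05, 0.20, 0.06 and -0.01, and the smallest adjusted p of any member was 0.417 and 0.159 without and with stimulus at 6 h and 0.219 with it at 24 h. The count stayed at 0 in all 4 conditions under the other scalings, filters, priors and groupings tried and with voom weights. At 6 h with the stimulus 83 of 84 members had a positive difference. The median over all genes tested was 0.01, with quartiles of -0.14 and 0.17. Members can shift together with a library, so that neither this count nor the 42 stands for separate observations. Library 26 held 2.25% of its reads on the members, against 2.69% in library 10 (both NFAM1+/+) and 2.80 and 2.86% in libraries 11 and 12 (NFAM1-/-). In this condition Rpl41, the shortest protein of the ribosome, was at 270.6 and 322.2 CPM in NFAM1+/+ and 377.4 and 369.6 CPM in NFAM1-/- libraries (0.34, SE 0.09, limma adjusted p = 0.159). Rps21 (0.30, limma adjusted p = 0.166) and Rpl37 (0.32, limma adjusted p = 0.196) came next, with 173.0 and 198.5 against 223.9 and 232.4 CPM for Rps21. Library 26 was the lower NFAM1+/+ library for each of the 3. Without it the median was 0.11, and without the other NFAM1+/+ library, library 10, 12 members passed, in a fit where the lone remaining library is assumed to vary like those of other groups.

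Without stimulus at 6 h, the smallest p values were those of Rpl7l1 (-0.16, SE 0.06, limma adjusted p = 0.417), Rps3a2 (0.48, limma adjusted p = 0.632) and Rpl3 (0.13, limma adjusted p = 0.714). At 24 h without stimulus Rps27l had a difference of -0.26 (limma adjusted p = 0.39) and Rps3a1 one of 0.17 (limma adjusted p = 0.41). Rps27l was at 37.74 and 46.41 CPM in the libraries titled NFAM1-/- and at 54.99 and 45.85 CPM in those titled NFAM1+/+, and these overlapped. With the stimulus at 24 h the smallest p values were those of Rps18 (0.21, limma adjusted p = 0.219), Rpl6l (-0.54, limma adjusted p = 0.325) and Rpl10a (0.19, limma adjusted p = 0.418). By tags the median over the members in that condition was 0.14 in place of -0.01, and without library 55 the count of members that passed was 1. The SE was about 0.09 on the log2 scale for the median member. With 2 libraries per group, differences of several times that size did not pass, so that the lack of a call does not show that a difference was absent.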

How the data were processed

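RNA of mouse monocytes was sequenced as non-stranded polyA libraries. Per the labels and the methods, the authors aligned reads with STAR (build GRCm39 or mm39), counted them with Rsubread, normalized with edgeR and tested with limma. The counting of reads shared between gene copies, the annotation and the tool versions are not given in the sources used here. The deposited table holds log2 CPM for 13085 genes in 16 libraries, 1 column a library and 0 columns without a sample. The values have the form that voom gives, with 0.5 added to the reads and a scaled size of the library as divisor, and the reads were recovered from them (100.0% of values within 0.01 of a whole number), which gave 48295939 to 88514341 reads per library. Among the symbols 17 read as dates and 2 rows share 1 symbol.

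The deposited log2 values were fitted with limma 3.58.1 in R 4.3.3, with 1 model of 8 groups, 8 residual degrees of freedom and a prior variance that follows mean expression, on the 12782 genes that reached 1 CPM in 2 or more of the 16 libraries. P-values were adjusted by Benjamini-Hochberg over all genes tested, with calls at 0.05 and, as a second rule, at a fold change of 2. Tables were made with Python 3.11.15 and pandas 2.3.3. The fit was tested on simulated data.

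The members and lists were chosen with earlier results of these data known. Named in the text are the 3 members with the highest and the 3 with the lowest difference in each stimulus and time comparison, the 3 of smallest p in each genotype comparison, paralog pairs, 7 well-known members and 10 genes outside the members. A few items of this rule and of the lists are not reported here. Others were named after their values were seen. Alternatives were other scalings (own totals, medians, quantiles), filters, priors, voom weights, groupings, member sets and each library left out. Positions and sequences are from RefSeq on GRCm38.p6 and transcript lengths from GENCODE vM21, which is not the authors' build, and were matched by symbol.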

Additional observations from a re-analysis of the deposited data

Results flagged for a closer look

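The response to IFN-γ plus CD40L differed between 6 and 24 h for most members, by the test of the difference itself. It was lower at 24 h for 75 members and higher for 2 (32% and 35.2% of all genes). Rpl10a (-1.43), Rpl12 (-1.38) and Rplp0 (-1.31) had the deepest log2 differences, and Rpl7l1 (0.63) and Rps27l (1.08) went the other way. By own totals of reads 65 members were lower and 4 higher.

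For 6 of 140 levels of named members within a condition, 1 of the 4 libraries stood further from the others than Dixon's 95% limit, where chance alone would give about 7 (1 in 20). The gap over the whole range was 0.963 for Rpl23a and 0.978 for Rpl41 without stimulus at 6 h, both with library 1 lowest, and 0.849 for Rpsa with stimulus at 6 h, with library 26 lowest. At 24 h it was 0.974 for Rpl12 (library 45 lowest) and 0.952 for Rps21 (library 46 highest) without stimulus, and 0.870 for Rplp0 with it (library 55 highest).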

How the results depend on the processing

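With the stimulus at 6 h, where 16 members rose and 10 fell at a median of 0.04, own totals gave 0 and 82 (-0.69), centring on medians 54 and 3 (0.21), quantile normalization 1 and 80 (-0.84), own totals without library 26 (chosen after seeing the data) 0 and 82 (-0.62), and a fold change of 2 gave 0 and 0. Leaving out each library gave 7 to 26 higher, 4 to 17 lower and medians of 0.00049 to 0.088. At 24 h (3 and 79, -0.78) own totals gave 1 higher and -1.11, quantiles -1.19, a fold change of 2 gave 0 and 21, and leaving out each library 2 to 3 higher. Over time without stimulus (23 and 9) the 12 libraries with 1 genotype in title and tag gave 14 higher, a fold change of 2 gave 0 and 0, and leaving out each library 17 to 28 and 6 to 13. Over time with stimulus (2 and 75, -0.76) own totals gave 8 higher (-0.39), centring 1 (-0.93), quantiles 6 (-0.27), own totals without library 26 5 (-0.45), and a fold change of 2 gave 1 and 18. For stimulus by time (2 and 75, -0.82) own totals gave 4 higher (-0.42), centring -0.98, quantiles -0.36, own totals without library 26 -0.48, and a fold change of 2 gave 1 and 23. Between genotypes at 6 h with stimulus (0 called, 0.20), leaving out each library gave 0 to 12 calls and 0.11 to 0.27, and own totals without library 26 gave 0.078. At 24 h with stimulus (0 called, -0.01) the 12 libraries and the tags each gave 0.14, and leaving out each library 0 to 1 calls and -0.12 to 0.10. Without the 20 other genes of most reads the shares were 4.64, 2.96, 4.84 and 2.23%. The planned share with other ribosome genes added to the members is not reported.

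Single differences at 6 h that turned sign are given by own totals, quantiles and own totals without library 26, in that order. They were -0.31, -0.53 and -0.27 for Rps20, -0.48, -0.70 and -0.44 for Rps27, -0.58, -0.58 and -0.51 for Rpl39, -0.69, -1.01 and -0.64 for Rpl10, -0.53, -0.86 and -0.49 for Rps4x, -0.71, -0.41 and -0.64 for Rpl36a, -0.59, -0.89 and -0.52 for Rplp1, -0.58, -0.75 and -0.51 for Rplp2, -0.54, -0.77 and -0.48 for Rps6, and -0.71, -0.97 and -0.66 for Rps27a. Own totals with and without library 26 gave -0.037 and -0.17 for Rps4l and -0.60 and -0.55 for Rpl22l1, and own totals -0.13 for Rpl24. Centring gave 0.037 for Rpl22, 0.13 for Rpl7, 0.061 for Rpl3 and 0.14 for Rplp0. Leaving out each library gave -0.070 to 0.0017 for Rpl7, -0.00073 to 0.073 for Rpl10, -0.085 to 0.12 for Rpl36a, -0.084 to 0.022 for Rplp0 and -0.0096 to 0.045 for Rps27a. At 24 h own totals gave -0.058 for Rpl22l1 and -0.28 for Rpl7l1, quantiles -0.14 for Rpl7l1 and the 12 libraries -0.0061 for Rpl24. By tags Rpl6l was 0.0057 with stimulus at 24 h. Of the single differences, 1156 kept direction and side of the threshold, 52 turned, 45 gained and 35 lost a call. Why results moved was not tested, apart from the scaling itself. No paired analysis was possible because the library numbers are not shared between groups. Depth did not limit most members, and 2 libraries per group limit the genotype comparisons.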
